A study of Danio rerio with 10 samples.

Results

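The genes described here encode the stress-inducible chaperones of the cytosol and their partners, followed in zebrafish exposed to BaP (benzo[a]pyrene), a combustion product. They were taken by symbol from a list of 10: the inducible hsp70 copies hsp70.1, hsp70.2, hsp70.3 and hsp70l, the RefSeq entry hsp70, the hsp90 alpha genes hsp90aa1.1 and hsp90aa1.2, the cochaperone gene dnajb1b, and the small heat shock protein genes hspb1 and hspb9. Under Ensembl annotation, 9 of the 10 were listed among 18910 genes at 96 hours post fertilization (hpf) and 5 among 14236 genes at 3.3 hpf. Under RefSeq annotation, 7 were listed among 12415 genes at 96 hpf and 5 among 9548 genes at 3.3 hpf. The deposited tables hold genes above 1 CPM (a gene's reads relative to the library total, not corrected for length) in at least 2 libraries at 96 hpf or 3 libraries at 3.3 hpf. A member can therefore have entered a table through the group in which it was high, and hsp70.2, hsp90aa1.1 and hspb9 were in neither gene table at 3.3 hpf. All CPM below were rescaled by TMM, and a member passed at a limma p under 0.05 after Benjamini-Hochberg adjustment over all genes of the table.

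All animals were of the AB line, and each library came from pooled whole embryos or larvae. At 3.3 hpf, in the blastula, 3 control and 3 BaP libraries were sequenced, and at 96 hpf, in the larva, 2 of each. BaP animals received 50 μg/L BaP, while the control label gives a volume of 0.1 mL/L and names no agent. The labels do not say how many animals were pooled or whether replicates were separate clutches, so the p-values measure the spread between these libraries, which may be technical. In whole-animal RNA, fewer cells of a type and less RNA per cell cannot be told apart.

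HSP70 binds unfolded stretches of protein and is stimulated by J-domain partners such as the product of dnajb1b, while HSP90 completes the folding of kinases, receptors and, in muscle, myosin. The heat shock factor Hsf1 switches on the inducible genes of this group when unfolded protein accumulates. HSP90 also holds the aryl hydrocarbon receptor, which BaP binds, in the cytosol, together with the cochaperone p23. Small heat shock proteins such as Hspb1 (Hsp27) hold unfolded proteins without using ATP.

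The reads assigned to listed genes, estimated from the CPM of 1 read, ran from 17.5 to 22.2 M per library at 3.3 hpf and from 13.2 to 17.7 M at 96 hpf. Of marker lists for exocrine pancreas, fast muscle and lens, 16 of 16, 15 of 15 and 11 of 11 genes were listed at 96 hpf, against 0, 1 and 1 at 3.3 hpf. Here and below, a gene lay above control if its log2 fold change was positive, even where libraries overlapped. At 96 hpf all 16 pancreas genes lay above control, as did 52.2% of all genes. BaP libraries stood above controls without overlap in 12 of them (26.0% of all genes). Of the 16, 2 passed (0.381% of all genes in that direction). Their summed level was 1311 to 1534 CPM in control libraries and 2237 to 2803 CPM after BaP. No marker of these lists was at 0 at 96 hpf. BaP replicate 2 had the highest pancreas sum. The fast muscle list overlapped between the groups, at 110182 to 117643 CPM in control libraries and 115517 to 126790 CPM in BaP larvae, as did the lens list, at 5274 to 6235 and 6131 to 6304 CPM. The part of these tissues in the results below was not tested.

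The first comparison asked how the chaperone genes differed between BaP and control larvae at 96 hpf. The hsp70 copies, both hsp90 alpha genes and dnajb1b had higher levels in each BaP library than in each control, and the small heat shock protein genes hspb1 and hspb9 did not. Of the 9 members listed, 1 passed the test, hsp70.2, which rose 3.39-fold. In this comparison 0.381% of all genes passed in that direction (72 of 18910). BaP libraries stood above controls without overlap in 7 of the 9 members and in 26.0% of all genes. The median log2 fold change was 0.92 over the 9 members and 0.02 over all genes. Both figures count hsp70.1, which entered the table through its BaP libraries, and hsp70 copies that may share reads. The members were also chosen with earlier results of these data known, so these figures are not independent support.

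**Figure D1:**
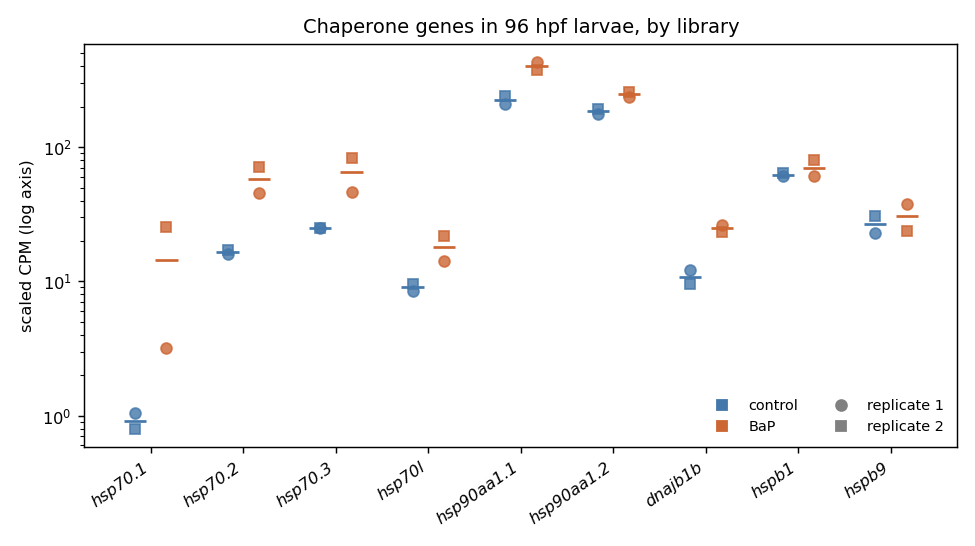
Scaled CPM (log axis) of the 9 chaperone genes listed at 96 hpf, in 2 control and 2 BaP libraries. Points are libraries, shaped by replicate, and horizontal lines are group means. Both BaP points lie above both control points for the hsp70 and hsp90 alpha genes and dnajb1b, and BaP replicate 2 is the higher BaP library for each hsp70 copy.

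The inducible copy hsp70.2 stood at 15.9 and 17.0 CPM in control replicates 1 and 2, and at 45.7 and 70.6 CPM in BaP replicates 1 and 2. The controls lay close together and both BaP libraries were well above them. Its means were 16.4 ± 0.765 CPM in control libraries and 58.1 ± 17.6 CPM in BaP larvae (SD, n = 2). The log2 fold change was 1.76 with a standard error of 0.21 (limma adjusted p = 0.0151). With each of the 4 libraries left out in turn, log2 values ran from 1.45 without BaP replicate 2 to 2.07 without BaP replicate 1. A group left with 1 library adds nothing to the spread in those fits, so passing in them is no support. With all 4 libraries hsp70.2 did not pass when the spread was estimated without a trend on expression (limma adjusted p = 0.176).

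The neighbouring copy hsp70.3 stood at 25.1 and 25.0 CPM in control libraries and at 46.0 and 83.6 CPM in BaP larvae. Both BaP libraries were above the controls, and BaP replicate 2 was 1.82 times BaP replicate 1. The log2 fold change was 1.29 (95% interval 0.72 to 1.86, limma adjusted p = 0.102). It fell short of the threshold with all 4 libraries. In the 4 fits with 1 library left out, log2 values ran from 0.86 to 1.72. In those fits the lone library of a group is assumed to vary like the pair in the other group.

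The copy hsp70.1 stood at 1.04 and 0.796 CPM in control libraries, 3.18 CPM in BaP replicate 1 and 25.6 CPM in BaP replicate 2. These values correspond to an estimated 13.7, 13.8, 49.6 and 425.8 reads, and with 1 control above 1 CPM the gene entered the table through its BaP libraries. Its fold change and p are therefore not free of that filter. The BaP libraries differed from each other by 8.04 times, more than BaP replicate 1 differed from the higher control (3.06 times). The log2 fold change of 2.79 had a wide 95% interval of 1.07 to 4.52 (limma adjusted p = 0.195). It was 1.38 without BaP replicate 2 and 4.21 without BaP replicate 1, so its size depended on which BaP library was kept.

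The gene hsp70l, whose promoter is widely used to drive heat-inducible transgenes in zebrafish, stood at 8.54 and 9.61 CPM in control libraries and at 14.1 and 21.9 CPM in BaP larvae. The groups did not overlap, and BaP replicate 2 was again the higher. Its log2 fold change was 0.92 (95% interval 0.37 to 1.46, limma adjusted p = 0.182), and it was 0.61 without BaP replicate 2. Over hsp70.2, hsp70.3 and hsp70l, BaP replicate 1 was at 1.55 to 2.78 times the control mean. BaP replicate 2 was at 2.41 to 4.30 times that mean. For hsp70.1, which entered the table through its BaP libraries, the ratios were 3.47 and 27.9.

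The copies are similar in sequence, and reads may have been split between them. In the current RefSeq gene order hsp70.1, hsp70.2 and hsp70.3 are consecutive protein-coding genes, and hsp90aa1.2 and hsp90aa1.1 are likewise next to each other. Summed over hsp70.1, hsp70.2 and hsp70.3, which does not depend on how reads were divided among those copies, the level was 42.0 and 42.8 CPM in control libraries and 94.9 and 179.8 CPM in BaP larvae. The control sums were nearly equal and the BaP sums were higher by a factor that differed between the replicates. The summed log2 fold change was 1.61 with a standard error of 0.26, just short of passing (limma adjusted p = 0.0519).

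The share of each copy in that sum differed between libraries. In controls hsp70.3 held 59.7% and 58.5% of the sum, hsp70.2 held 37.8% and 39.6%, and hsp70.1 held 2.47% and 1.86%. In BaP replicate 1 hsp70.2 and hsp70.3 held 48.2% and 48.5%. In BaP replicate 2 hsp70.1 held 14.2%, its largest share among the 4 libraries. These shares were not tested.

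**Figure D2:**
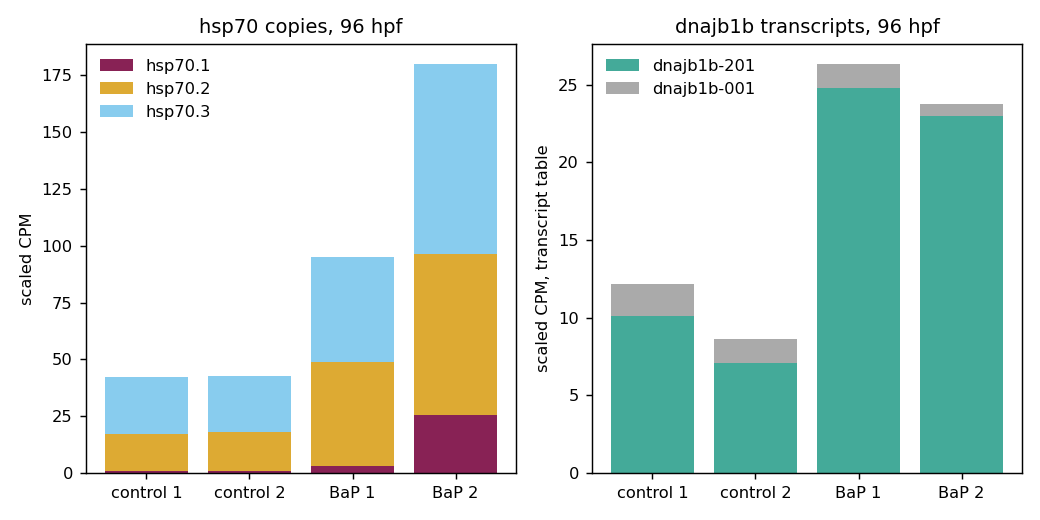
Left, scaled CPM of the 3 neighbouring hsp70 copies stacked in each 96 hpf library. Right, scaled CPM of the 2 dnajb1b transcripts stacked in each 96 hpf library, from the transcript table. The hsp70 sum goes from 42.0 and 42.8 CPM in controls to 94.9 and 179.8 CPM in BaP larvae, and of the dnajb1b transcripts it is dnajb1b-201 that is higher in both BaP libraries.

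The RefSeq entry hsp70 carries a transcript accession that the current RefSeq gene list gives to hsp70.3, so the name is not a further gene. At 96 hpf the RefSeq gene table listed it at 45.0 and 47.1 CPM in control libraries and at 99.2 and 173 CPM in BaP larvae. These levels were close to the sum of hsp70.1, hsp70.2 and hsp70.3 (42.0, 42.8, 94.9 and 179.8 CPM). They were above those of hsp70.3 alone (25.1, 25.0, 46.0 and 83.6 CPM). The entry may thus hold reads of several copies, and it is no separate support for hsp70.3. Which copies gave its reads was not tested. The entry rose by log2 1.5 (SE 0.23, limma adjusted p = 0.0393 over the RefSeq genes). Its 2 entries in the RefSeq transcript table had log2 fold changes of 1.39 (adjusted p = 0.0884) and 1.77 (adjusted p = 0.0342). Of the 7 members under RefSeq annotation, hsp70 and dnajb1b passed, where 0.499% of all RefSeq genes passed with higher values in BaP larvae. Among RefSeq transcripts 0.363% passed in that direction, and among Ensembl transcripts 0.00384%, which was 1 transcript and no member.

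The cochaperone gene dnajb1b encodes an Hsp40 protein that delivers substrates to HSP70. It stood at 12.1 and 9.56 CPM in control libraries and at 26.4 and 23.4 CPM in BaP larvae, so each BaP library was at least 1.93 times the higher control. Here BaP replicate 1 was the higher BaP library, unlike in the hsp70 copies. The log2 fold change was 1.17 (SE 0.19, limma adjusted p = 0.0513) in the Ensembl table and 1.16 (adjusted p = 0.0420) in the RefSeq table, on either side of the threshold. In the RefSeq table it stood at 14.5 and 11.8 CPM without BaP and at 31.7 and 28.0 CPM with it. Over 16 alternative settings the log2 fold change ran from 1.01 to 1.33. The settings that paired libraries or left 1 out are set aside in what follows. With a pseudocount of 2, a mean of at least 5 CPM, a robust spread or RefSeq it passed narrowly (limma adjusted p from 0.0420 to 0.0492). Under the remaining settings it did not pass (limma adjusted p from 0.0516 to 0.200).

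The 2 Ensembl transcripts of dnajb1b had fold changes of opposite sign. Transcript dnajb1b-201 stood at 10.1 and 7.09 CPM in control libraries and at 24.8 and 23.0 CPM in BaP larvae (log2 1.44, adjusted p = 0.338 over the transcripts). Transcript dnajb1b-001 was low, at 2.08 and 1.57 CPM in control libraries and at 1.52 and 0.777 CPM in BaP larvae. Its log2 fold change was -0.53 (95% interval -1.58 to 0.53, limma adjusted p = 0.629), so its sign is not settled. The share of dnajb1b-201 was 82.9% and 81.9% in controls and 94.2% and 96.7% in BaP larvae. The shares did not overlap, the difference between transcripts was not tested, and neither transcript passed alone.

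Of the hsp90 alpha genes, hsp90aa1.1 is expressed in zebrafish skeletal muscle, where it is needed for myosin folding. It stood at 209 and 241 CPM in control libraries and at 429 and 375 CPM in BaP larvae. Both BaP libraries were at least 1.56 times the higher control, with BaP replicate 1 the higher. The RefSeq table gave it 245 and 280.2 CPM without BaP and 486 and 416 CPM with it (log2 0.78, limma adjusted p = 0.0607). The log2 fold change was 0.84 (95% interval 0.52 to 1.15, limma adjusted p = 0.0582), and it lay between 0.74 and 0.94 with each library left out. The fast muscle list had overlapping sums and a median log2 fold change of 0.17 over its 15 genes, of which 9 stood above control without overlap (26.0% of all genes did) and none passed.

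Its neighbour hsp90aa1.2 stood at 177 and 193 CPM in control libraries and 235 and 259 CPM in BaP larvae. The groups did not overlap, and the log2 fold change was 0.41 (95% interval 0.13 to 0.70, limma adjusted p = 0.225).

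The small heat shock protein genes had overlapping groups. The gene hspb1 stood at 60.8 and 64.1 CPM in control libraries and at 60.9 and 79.9 CPM in BaP larvae, so that BaP replicate 1 lay between the controls. Its log2 fold change was 0.16 (95% interval -0.20 to 0.52) and it was -0.04 without BaP replicate 2. The gene hspb9 stood at 22.8 and 30.9 CPM in control libraries and at 37.9 and 23.7 CPM in BaP larvae (log2 0.17, 95% interval -0.38 to 0.73). The intervals leave room for a change in either direction in both genes.

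**Figure D3:**
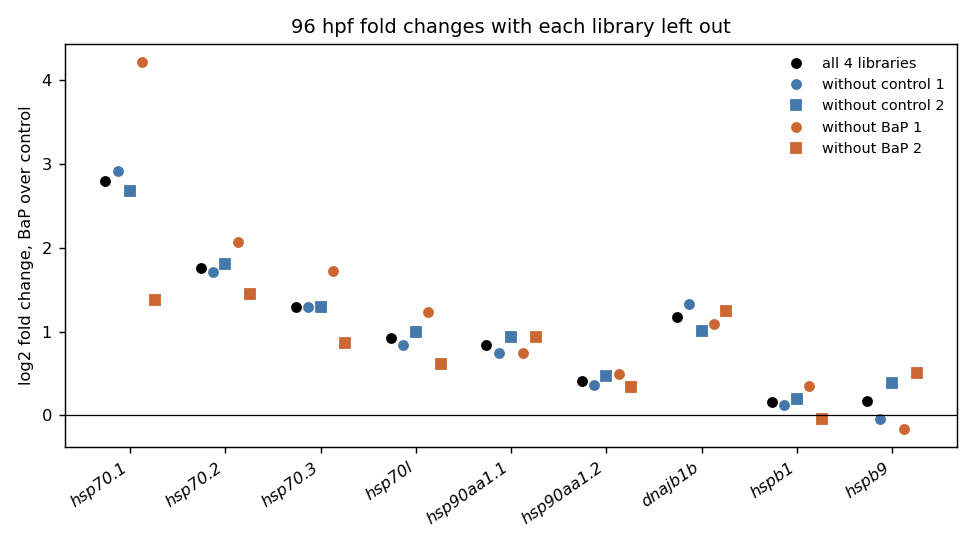
Log2 fold change (BaP over control) of each chaperone gene at 96 hpf with all 4 libraries and with each library left out. With a BaP library left out hsp70.1 lies at 1.38 or 4.21, while hsp90aa1.1 and dnajb1b stay between 0.74 and 1.33.

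With each library left out, 3 members passed when either control library was dropped, 7 when BaP replicate 1 was dropped and 4 when BaP replicate 2 was dropped. The share of all genes that passed with higher values was 0.561% and 0.635% without control replicates 1 and 2. It was 8.41% without BaP replicate 1 and 0.989% without BaP replicate 2. The members that passed without BaP replicate 1 thus stand beside a share of all genes that also grew. They include hsp70.1, which entered the table through its BaP libraries and is not free of that filter.

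Other genes of the chaperone system were followed through 7 lists. Of their 85 symbols 67 were measured at 96 hpf, 55 of them lay above control, as did 52.2% of all genes, and none passed in either direction. Their median log2 fold change was 0.16, against 0.02 over all genes. Both the 55 and this median count cryabb, which entered the table through its BaP libraries alone. The 3 heat shock factor genes gave no common direction. The master regulator hsf1 had 9.85 and 13.3 CPM in control and 9.84 and 6.98 CPM in BaP libraries (log2 -0.44, limma adjusted p = 0.406). The factor genes hsf2 and hsf4, the latter needed for the lens in mammals, had log2 fold changes of 0.20 and 0.07.

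The constitutive chaperone genes had log2 fold changes near 0 (median 0.04). Constitutive hspa8 (Hsc70) stood at 4841 ± 66.1 CPM in control libraries and 5258 ± 93.3 CPM in BaP larvae (n = 2, log2 0.12). The HSP110 genes hspa4a and hspa4b both had log2 0.04, and hsp90ab1 (HSP90 beta) had log2 0.03 with overlapping groups. Of the 5 genes measured in this list 1 had BaP libraries that stood above both controls, beside 26.0% of all genes.

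Among nucleotide exchange and HSP90 cochaperone genes 20 of 24 lay above control, 13 without overlap (median log2 0.21), beside 52.2% and 26.0% of all genes. The immunophilin gene fkbp4 stood at 118 and 117 CPM in control libraries and 145 and 158 CPM in BaP larvae (log2 0.36, limma adjusted p = 0.242). The gene stip1, whose product Hop links HSP70 to HSP90, had log2 0.39, and the p23 gene ptges3a had log2 0.33. In the J-domain list 7 of 11 lay above control (median 0.05). There dnajb6b, dnajb5 and dnajb12a had log2 fold changes of 0.28, -0.50 and 0.19. The gene dnajb5 was low and its groups overlapped, at 1.44 and 1.74 CPM in control libraries and 1.60 and 0.541 CPM in BaP larvae.

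The other small heat shock protein genes had a median log2 fold change of 0.41 over 9 measured genes, of which 7 lay above control. In all genes that share was 52.2%. Both the 7 and the median count cryabb, whose groups had to differ, as described below. The gene hspb6, expressed in muscle in mammals, stood at 16.9 and 31.9 CPM in control libraries and at 55.2 and 40.5 CPM in BaP larvae (log2 1.01, limma adjusted p = 0.206). The gene hspb11 had log2 0.48. The alpha B crystallin gene cryabb was listed at 0 and 0.121 CPM in control libraries and at 1.2 and 1.92 CPM in BaP larvae, near the lower limit of the table. It entered the table through its BaP libraries alone, so its groups had to differ, and it is given as values with no test.

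In the TRiC chaperonin, the ring that folds actin and tubulin, all 8 measured genes lay above control, 5 of them without overlap. The median log2 fold change was 0.11, with 0.18 for tcp1, 0.12 for cct5 and 0.11 for cct3. Of the mitochondrial chaperone genes 6 of 7 lay above control, 4 without overlap (median 0.24). Over all genes these shares were 52.2% and 26.0%. The HSP10 gene hspe1 and the exchange factor gene grpel1 had log2 fold changes of 0.45 and 0.31, and the mitochondrial HSP90 gene trap1 went the other way at -0.67. None of these passed.

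The second comparison asked the same of 3.3 hpf embryos. None of the 5 members in the Ensembl table passed, as was the case for every gene tested (0% of 14236 genes). No member had an unadjusted limma p under 0.05, which 700 of all genes did (4.92%), and the smallest among the members was 0.224. None of the 5 had BaP libraries that stood above every control, where 6.24% of all genes did. The median log2 fold change was 0.56 over the 5 members and 0.01 over all genes. That 0.56 is the value of hsp70.1, which held 0 to 46.8 estimated reads per library. The gene entered the table through control replicate 2 and BaP replicates 2 and 3. Without BaP replicate 2 the members' median was 0.06.

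In the blastula the cochaperone gene dnajb1b stood at 299.9, 393 and 287 CPM in control replicates 1, 2 and 3 and at 307, 434 and 371 CPM in BaP replicates 1, 2 and 3. The groups overlapped, with replicate 2 the highest in both. Its log2 fold change was 0.18 (95% interval -0.20 to 0.56, limma adjusted p = 0.917). Transcript dnajb1b-201 held 88.1% to 93.6% of its transcript level in these 6 libraries.

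The gene hspb1 was far higher in 1 BaP library than in the other 5 libraries. It stood at 9.72, 6.05 and 7.17 CPM in control libraries, at 5.34 and 6.17 CPM in BaP replicates 1 and 3, and at 119 CPM in BaP replicate 2. That library held an estimated 2514 reads of the gene, 12.3 times the level of the next library, while the other 5 held from 106 to 173 reads. The other 2 BaP libraries lay within or below the controls. The log2 fold change was 1.06 with a standard error of 1.07, and -0.36 without BaP replicate 2.

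The copy hsp70.3 was also highest in BaP replicate 2. It stood at 8.81, 16.7 and 6.46 CPM in control libraries and at 9.26, 39.3 and 13 CPM in BaP embryos. One BaP library lay above the controls and the other 2 lay among them (log2 0.74, 95% interval -0.57 to 2.06, limma adjusted p = 0.913). Without BaP replicate 2 the log2 fold change was 0.15. In the RefSeq gene table, whose libraries are lettered rather than numbered, hsp70 stood at 12.4, 22.7 and 8.61 CPM in control libraries and at 11.8, 63.4 and 18.7 CPM in BaP embryos (log2 0.82). In the same table hsp70l stood at 1.46, 0.670 and 1.34 CPM in control libraries and at 0.366, 8.06 and 0.586 CPM in BaP embryos (log2 0.31), so 1 library was high and the others were near the lower limit. The labels do not tie these letters to replicate numbers. Among RefSeq transcripts, whose libraries are numbered, hsp70l stood at 8.05 CPM in BaP replicate 2. There it stood at 0.367 and 0.586 CPM in BaP replicates 1 and 3.

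The remaining blastula members differed little or were barely detected. The gene hsp90aa1.2 stood at 8.53, 17.4 and 9.86 CPM in control libraries and at 9.60, 20.7 and 8.93 CPM in BaP embryos (log2 0.09, 95% interval -0.84 to 1.02). Replicate 2 was again the highest library of each group. The copy hsp70.1 stood at 2.98e-04, 1.63 and 0.126 CPM in control libraries and at 0.0134, 1.11 and 2.09 CPM in BaP embryos. In control replicate 1 and BaP replicate 1 this was under the CPM of 1 read, which reads counted whole cannot give.

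**Figure D4:**
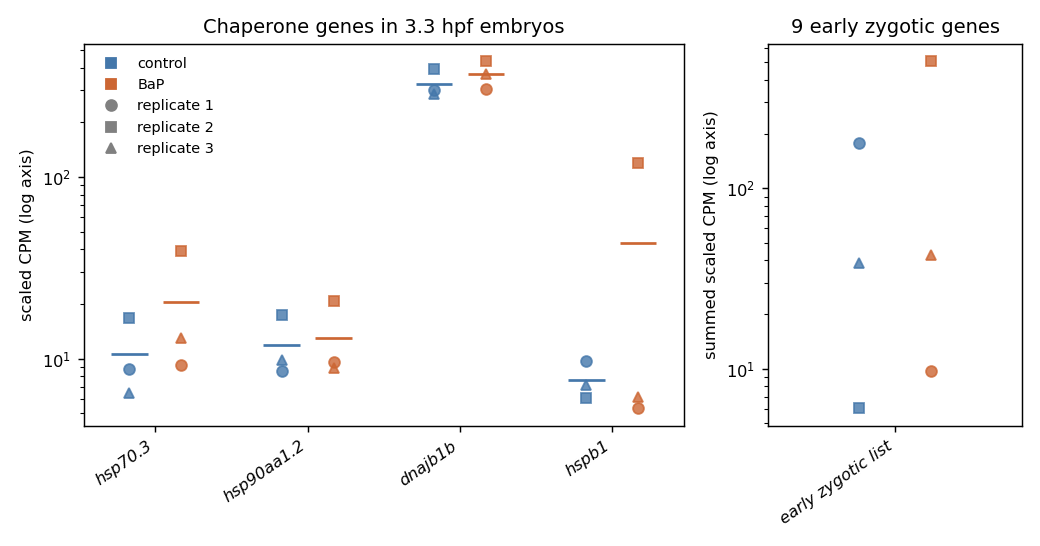
Left, scaled CPM (log axis) of 4 chaperone genes in the 6 blastula libraries, with horizontal lines for group means; hsp70.1, at or near 0 in several libraries, is left out. Right, summed scaled CPM (log axis) of the 9 listed early zygotic genes in the same libraries. BaP replicate 2 is the highest library for hspb1 (119 CPM), hsp70.3 (39.3 CPM) and the early zygotic sum (506 CPM).

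The same library had the highest summed level of genes of early zygotic transcription, which the embryo's own genome starts to produce around this age. Of 20 symbols on the list of such genes 9 were listed. The 9 listed genes of that list summed to 178, 6.04 and 38.7 CPM in control replicates 1, 2 and 3 and to 9.67, 506 and 42.6 CPM in BaP replicates 1, 2 and 3. Of the 9, tbx16 was listed at 0 in control replicate 3 and BaP replicate 1. Higher in control replicate 1 than in BaP replicate 2 were vox (40.9 against 36.0 CPM) and ndr1 (10.5 against 8.11 CPM). The others of the 9 were highest in BaP replicate 2. Control replicate 1, with the next highest sum, had hspb1 at 9.72 CPM. Control replicate 2, with the lowest sum, had the highest hsp70.3, hsp90aa1.2 and dnajb1b of the controls. Whether these genes have a part in the hspb1 and hsp70 values of BaP replicate 2 was not tested.

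Of the pathway lists 52 genes were measured at 3.3 hpf, 26 lay above control (51.0% of all genes did), none passed, and the median log2 fold change was -0.00. The genes with the smallest p of each list were hsf2 (log2 0.43), hspa4a (-0.28), dnaja2 (0.12), chordc1 (-0.31), cct4 (-0.45) and hspa9 (0.20), each with a limma adjusted p of 0.907 or above. The factor gene hsf1 stood at 64.5 ± 4.82 CPM in control libraries and 77.4 ± 13.1 CPM in BaP embryos (n = 3). No other small heat shock protein gene was listed at this age.

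**Figure D5:**
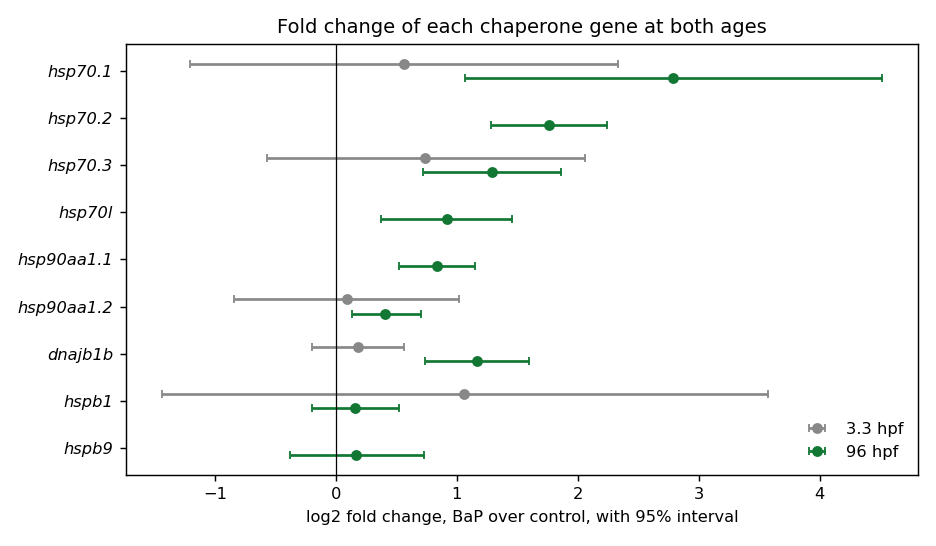
Log2 fold change (BaP over control) of each chaperone gene at 3.3 hpf (grey) and 96 hpf (green), as points with 95% intervals from limma. At 3.3 hpf the intervals of all 5 genes include 0. At 96 hpf those of hspb1 and hspb9 include 0 and those of the other 7 genes do not. Over all genes at that age 15.8% had an unadjusted limma p under 0.05, which is the same criterion. The 7 count hsp70.1, which entered the table through its BaP libraries. After adjustment over all genes 1 of the 7, hsp70.2, passed.

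The third comparison asked whether the BaP effect differed between the ages, over 12800 genes listed at both. None of the 5 members listed at both ages passed, where 0.0234% of all genes did (3 genes). For dnajb1b the log2 fold change at 96 hpf minus that at 3.3 hpf was 0.99 (SE 0.26), with an unadjusted p of 0.00316 and a limma adjusted p of 0.270. The same difference was 2.23 (SE 1.31) for hsp70.1, 0.55 (SE 0.79) for hsp70.3 and 0.33 (SE 0.51) for hsp90aa1.2. These depended on single libraries of either age. That of hsp70.1 ran from 0.82 without BaP replicate 2 of the larva to 3.65 without BaP replicate 1 of the larva. That of hsp70.3 ran from 0.12 without BaP replicate 2 of the larva to 1.14 without BaP replicate 2 of the blastula. That of hsp90aa1.2 ran from 0.03 without control replicate 2 of the blastula to 0.70 without BaP replicate 2 of the blastula. For hspb1 it was -0.90 (SE 1.46), and 0.52 without BaP replicate 2 of the blastula. The difference of hsp70.1 is not free of the filter, since the gene entered the larval table through its BaP libraries. Its blastula values rest on 0 to 46.8 estimated reads.

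Control levels at the ages stand side by side, since the tables were scaled separately and were not tested against each other. The gene dnajb1b had 327 ± 58.2 CPM in the blastula (n = 3) and 10.9 ± 1.83 CPM in the larva (n = 2). In the larva it was still below every blastula library after BaP. The other 4 genes listed at both ages had higher control means in the larva. The gene hsp90aa1.2 had 11.9 ± 4.80 and 185 ± 10.7 CPM, hspb1 had 7.65 ± 1.88 and 62.4 ± 2.38 CPM, and hsp70.3 had 10.7 ± 5.36 and 25.1 ± 0.0428 CPM. The copy hsp70.1 had 0.586 ± 0.908 and 0.918 ± 0.172 CPM, a difference within the blastula spread.

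For dnajb1b the 4 groups ran, from the lowest mean, from larval controls to larval BaP, blastula controls and blastula BaP, and the blastula groups overlapped. For hsp90aa1.2 it ran from blastula controls to blastula BaP, larval controls and larval BaP, and the blastula groups overlapped. For hsp70.3 the order was blastula controls, blastula BaP, larval controls and larval BaP, with the highest blastula BaP library (39.3 CPM) above both larval controls. For hspb1 the order of means was the same, the larval groups overlapped, and that library (119 CPM) was above every larval library, whose highest was 79.9 CPM.

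Across the 10 libraries, after subtracting each gene's mean within each age, the mean profile of the 5 members listed at both ages was highest in BaP replicate 2 of each age (1.33 at 3.3 hpf and 0.99 at 96 hpf, log2). Of 8685 other genes with a mean of at least 5 CPM at both ages, the most similar were rbmx (Pearson r = 0.941), anp32e (0.928), decr1 (0.916), zfand5a (0.905) and hnrnpd (0.905). These values describe 10 libraries in which BaP replicate 2 of each age carries much of the profile, and r also holds the treatment difference they share. The profile counts hsp70.1, which entered the larval table through its BaP libraries and stood at 25.6 CPM in BaP replicate 2 there. It is therefore not free of that filter. It also counts hspb1, at 119 CPM in BaP replicate 2 of the blastula. In the larva dnajb1b was higher in BaP replicate 1 (26.4 against 23.4 CPM), so the profile is not that of each member.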

How the data were processed

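The 10 libraries are held in 8 deposited tables (gene or transcript, Ensembl or RefSeq, by age). TopHat, Partek, edgeR and the build Zv9 are named, without versions or roles, per the submitters' processing notes. Values in the deposited tables were read as CPM, since every column of a table sums to the same total. No length correction was taken to apply, since many values in a library were whole multiples of a common CPM, as given below. Low genes had been removed before deposit. Between 34.5% and 65.3% of values per library were whole multiples of the CPM of 1 read, within 0.05 reads, so whole reads could not be recovered and no count test was run. In all 0 columns were left unmapped, and the lettered RefSeq gene columns at 3.3 hpf were assigned to groups only.

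CPM were rescaled by new TMM factors (0.929 to 1.07 over all tables, with 30% trimmed by log ratio and 5% by average level), and all text values are on that scale. The test was limma 3.58.1 in R 4.3.3 (lmFit, eBayes with a trend) on log2(CPM + 0.5), with group as the only term. It was also run on simulated data with independent normal noise for each gene. Such noise does not reproduce single outlying libraries, and no support is drawn from that run. Fold changes on this scale understate those of low genes. Benjamini-Hochberg adjustment ran over all genes of a table, and a gene passed at an adjusted p under 0.05. The difference between ages was an interaction in 1 fit of all 10 libraries. Members, pathway lists and marker lists were chosen with earlier results of these data known. Beyond the members, the text names for each pathway list the 3 genes with the smallest p at 96 hpf and the 1 at 3.3 hpf, and the 5 genes most like the members' profile. The genes hsp90ab1 at 96 hpf and hsf1 at 3.3 hpf were added after their values were seen. Older symbols were matched through RefSeq names of a current assembly (GRCz12tu), from which gene order but no coordinates were used. Alternatives were other scalings, pseudocounts, a filter on low genes, spread models, a replicate block, RefSeq and transcript tables, 1 fit of all libraries and each library left out.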

Additional observations from a re-analysis of the deposited data

How the results depend on the processing

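At 96 hpf 1 member passed (hsp70.2), also with median-ratio scaling, CPM as deposited and a pseudocount of 0.1. The count was 2 with a pseudocount of 2, a mean of at least 5 CPM, a robust spread or the RefSeq gene table. It was 0 without a trend of the spread, and 0 with all 10 libraries in 1 fit, which holds 5 of the members and not hsp70.2. It was also 0 with the hsp70 copies summed, an alternative chosen after seeing the data. Leaving out each library gave 3 to 7. For the other counts the cause was not tested. Of all RefSeq genes 0.499% passed with higher values, beside 0.381% of Ensembl genes in the main fit. For a pseudocount of 2, a mean of at least 5 CPM and a robust spread that share was not counted. Their counts of 2 are thus not read as a result about the members. Same-numbered libraries did not deviate together (correlations of -0.49, -0.48 and 0.01 at 3.3 hpf and -0.30 at 96 hpf), so numbers were not taken as pairs. In the main fit 1 member and 80 of 18910 genes passed at 96 hpf. With the replicate block 5 members passed at 96 hpf (155 of 18910 genes). With the crossed pairing, added after seeing the data, 7 members did (2179 of 18910 genes). Both counts, and the one without BaP replicate 1, include hsp70.1, which entered the table through its BaP libraries. At 3.3 hpf and for the difference between ages the count was 0 under every alternative run.

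Signs turned for members that had not passed. Leaving out each library moved hspb9 from -0.16 to 0.51 and hspb1 from -0.04 to 0.35 at 96 hpf. At 3.3 hpf it moved hspb1 from -0.36 to 1.82 and hsp90aa1.2 from -0.28 to 0.39, and the age difference of hspb1 from -1.66 to 0.52. Transcript dnajb1b-001 at 96 hpf was at -0.53. With 2 libraries per group the design is small, and hsp70.1 at 0 to 46.8 estimated reads in the blastula limits what can be said of it there.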
